A study of Bos taurus with 9 samples.

Results

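The peaks of 2 histone acetylation marks, H3K9ac and H3K27ac, were compared in rumen epithelial tissue of Holstein calves after weaning. All 2127 peaks of the H3K9ac library and all 30446 peaks of the H3K27ac library after weaning were taken, 32573 of the 130580 peaks in the series, with no selection by any measured value. The series holds chromatin immunoprecipitation followed by sequencing (ChIP-seq) for 4 targets, H3K9ac, H3K27ac, H3K9me3 and RNA polymerase II (RNA pol II), each in 1 library before weaning and 1 library after weaning, and an input library that has no peak list. The labels give the breed, the tissue, the time point and the antibody of each library, no treatment other than weaning, and neither the age nor the number of the calves. Both H3K9ac libraries were sequenced on lane 1 and both H3K27ac libraries on lane 2, so mark and lane cannot be told apart.

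Acetylation neutralises the positive charge of lysines in the tail of histone H3 and is placed by acetyltransferases and removed by deacetylases. H3K9ac is known mainly from active gene promoters, and H3K27ac marks active promoters and also active enhancers, the distant elements that raise transcription, where the acetylated nucleosomes often lie on either side of the DNA that transcription factors occupy. H3K9me3, trimethylation of lysine 9 on the same histone, is a mark of repressed chromatin, and the same lysine cannot be acetylated and methylated at once. The rumen epithelium absorbs the short-chain fatty acids made by fermentation, and it grows and matures when calves change from milk to solid feed. The tissue is a mixture of cells, so 2 marks at the same position on 1 molecule and 2 marks in different cells or on different alleles cannot be told apart here.

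A peak is an interval in which the authors called more reads in the immunoprecipitated sample than in the input, given only by its positions on the cattle assembly UMD3.1. Peaks were said to touch when they shared at least 1 bp. An H3K27ac peak was said to flank an H3K9ac peak when it did not touch it and the gap between them was at most 5 kb. As background, the same measures were taken over windows of 244 bp, the median width of an H3K9ac peak after weaning, laid end to end along all 30 chromosomes. Each group is 1 library, so no test was possible, and the intervals given are 95% Wilson intervals of a share, or for a median 95% intervals from order statistics. They hold the error of counting alone, and peaks that are neighbours do not count as independent. Depth is not held in the lists. The H3K9ac peaks had a median width of 244 bp and covered 0.582 Mb, and the H3K27ac peaks had a median width of 290.0 bp and covered 10.7 Mb, 0.403% of the summed chromosome extent.

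Most H3K9ac peaks after weaning lay on H3K27ac, and few peaks of the much longer H3K27ac list lay on H3K9ac. Of 2127 H3K9ac peaks, 1474 touched an H3K27ac peak, 69.3% (95% interval 67.3 to 71.2%), where 0.665% of the background windows did. In the other direction 1472 of 30446 H3K27ac peaks touched an H3K9ac peak, 4.83% (4.60 to 5.08%), against 0.045% of windows as wide as the median H3K27ac peak. The shared stretches added up to 373 kb, which was 64.1% of the length of the H3K9ac peaks and 3.48% of that of the H3K27ac peaks. With only the 2127 widest H3K27ac peaks, which makes the lists equal in number, 18.85% of H3K9ac and 17.8% of H3K27ac peaks touched. Nearly equal shares follow from equal numbers when most peaks pair 1 to 1, and this setting also changes the width of the H3K27ac peaks. A reciprocal overlap of 50% gave 35.0% and 2.45%. Pairing was nearly always 1 to 1. Only 27 H3K9ac peaks touched 2 or more H3K27ac peaks and only 28 H3K27ac peaks touched 2 or more H3K9ac peaks. By chromosome, H3K9ac peaks touched H3K27ac in shares from 41.9% on chromosome 20 (13 of 31) to 85.7% on chromosome 29 (42 of 49). These had a median of 67.5% over 30 chromosomes, and 28 of them were above 50%.

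Peaks on H3K9me3 were rare in the H3K27ac list and more frequent in the H3K9ac list. An H3K9me3 peak of either time point was touched by 320 H3K9ac peaks (15.0%, 13.6 to 16.6%) and by 261 H3K27ac peaks (0.857%, 0.760 to 0.967%), where 0.114% of the background windows did so. Taken by time point, H3K9me3 after weaning was touched by 14.2% of H3K9ac peaks and 0.0902% of windows, and H3K9me3 before weaning by 14.4% and 0.0545%. Leaving these peaks out of both lists left 1807 H3K9ac peaks, of which 1293 touched H3K27ac, 71.6% (69.4 to 73.6%), and 30185 H3K27ac peaks, of which 1290 touched H3K9ac, 4.27% (4.05 to 4.51%). Of the 320 H3K9ac peaks on H3K9me3, 181 touched H3K27ac, 56.6% (51.1 to 61.9%). The overlap in both directions was therefore present with and without these regions.

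In touching pairs the centres of both peaks lay close together. Over 1501 pairs the median distance between the centres was 73.0 bp (95% interval 69.0 to 79.5 bp), with quartiles at 28.5 and 161 bp. It was 202.5 bp when peaks of a list within 1 kb were first merged, 174 bp against the 2127 widest H3K27ac peaks, and 35.0 bp in pairs with a reciprocal overlap of 50%. The centres were within 100 bp in 892 pairs (59.4%), within 200 bp in 1246 pairs (83.0%), and more than 500 bp apart in 15 pairs. The H3K9ac centre lay at the higher coordinate in 758 pairs and at the lower in 723, so neither side prevailed. Most often the narrower H3K9ac peak lay whole within the H3K27ac peak, in 929 pairs (61.9%). The peaks overlapped in part in 477 pairs (31.8%), and the H3K27ac peak lay within the H3K9ac peak in 112 pairs (7.46%), with 17 pairs of identical ends counted under both. In these pairs the median width was 254 bp for H3K9ac and 457 bp for H3K27ac.

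The offset was larger in the pairs with wider H3K27ac peaks. With the pairs divided into 5 groups of about equal size by the width of the H3K27ac peak, the median offset was 38.5 bp for widths of 200 to 292 bp. It was 45.0 bp for 293 to 403 bp and 58.5 bp for 404 to 522 bp. It was 102.75 bp for 523 to 716 bp and 201.75 bp for 717 to 2307 bp. Outside H3K9me3 the medians rose in the same order from 40.5 to 223.75 bp. A wider peak leaves more room for an offset, so the position was also expressed relative to the room available. For each H3K9ac peak that lay within a wider H3K27ac peak, 0 stood for concentric peaks and 1 for an H3K9ac peak flush with an end of the H3K27ac peak. Over 912 such peaks the median was 0.557 (0.532 to 0.596), where 0.5 is the middle of the range. Of these peaks, 32.7% (29.7 to 35.8%) lay between 0.75 and 1 and 21.6% (19.1 to 24.4%) between 0 and 0.25.

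**Figure D1:**
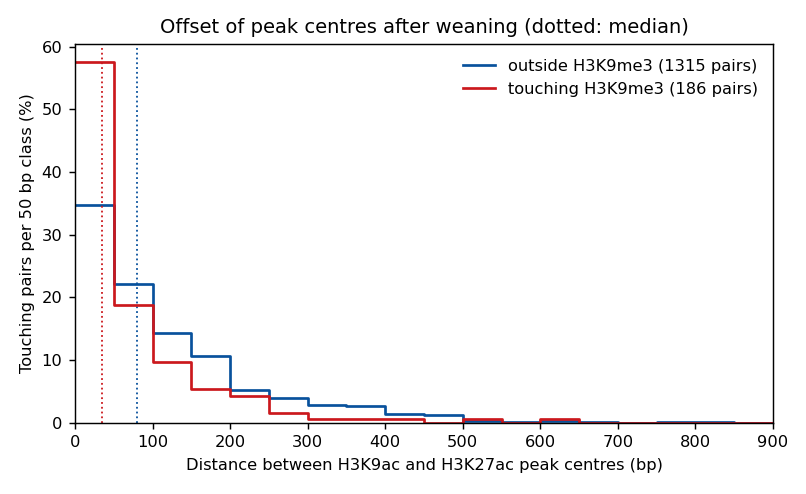
Distance in bp between the H3K9ac and the H3K27ac centre of touching pairs after weaning, on the x axis, against the percentage of pairs in classes of 50 bp, on the y axis. The 186 pairs whose H3K9ac peak touches H3K9me3 (red, dotted median 35.25 bp) lie at shorter distances than the 1315 pairs outside H3K9me3 (blue, dotted median 79.5 bp).

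Pairs on H3K9me3 had another geometry. For 186 pairs whose H3K9ac peak touched H3K9me3 the median offset was 35.25 bp (31.5 to 48.0 bp), and for the 1315 pairs outside H3K9me3 it was 79.5 bp (72.5 to 86 bp). Reciprocal overlap of at least 50% of both peaks held for 153 of the pairs on H3K9me3 (82.3%) and 592 of the others (45.0%). Exactly 1 boundary fell on the same base in 47 pairs on H3K9me3 (25.3%) and in 119 others (9.05%). Both ends were identical in 10 pairs on H3K9me3 (5.38%) and in 7 others (0.532%). The H3K27ac peaks were also narrower on H3K9me3, with a median of 324 bp against 480.0 bp, and the H3K9ac peaks wider, with 340.0 bp against 249 bp. The relative position within H3K27ac peaks outside H3K9me3 had a median of 0.548 (0.5 to 0.580) over 865 peaks, with 30.9% between 0.75 and 1.

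Beyond the peaks that they touched, most H3K9ac peaks had other H3K27ac peaks nearby. At least 1 side was flanked for 1417 H3K9ac peaks, 66.6% (64.6 to 68.6%), against 6.68% of background windows, and both sides were flanked for 501 peaks, 23.6% (21.8 to 25.4%), against 0.88% of windows. Outside H3K9me3 these shares were 68.3% and 24.8%. With peaks within 1 kb merged they were 43.3% and 8.65%, and against the 2127 widest H3K27ac peaks 14.95% and 1.27%. A limit of 2 kb gave 14.25% on both sides. Touching and flanking together reached 1817 of 2127 peaks, 85.4% (83.9 to 86.9%), against 6.88% of windows. For H3K9ac peaks on H3K27ac the flanked share was near that of windows on H3K27ac, 72.9% (70.5 to 75.1%) against 70.3%, so most of that share is also found at any position on an H3K27ac peak.

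The 6 possible arrangements were all populated. Among H3K9ac peaks that touched H3K27ac, 405 were also flanked on both sides (19.0% of all H3K9ac peaks), 669 on 1 side (31.5%) and 400 on no side (18.8%). Among those that touched none, 96 lay between H3K27ac peaks on both sides (4.51%, against 0.714% of windows), 247 had them on 1 side (11.6%, against 5.5%) and 310 had none within 5 kb (14.6%). Outside H3K9me3 the shares in the same order were 20.6%, 33.0%, 17.9%, 4.21%, 10.5% and 13.7%.

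**Figure D2:**
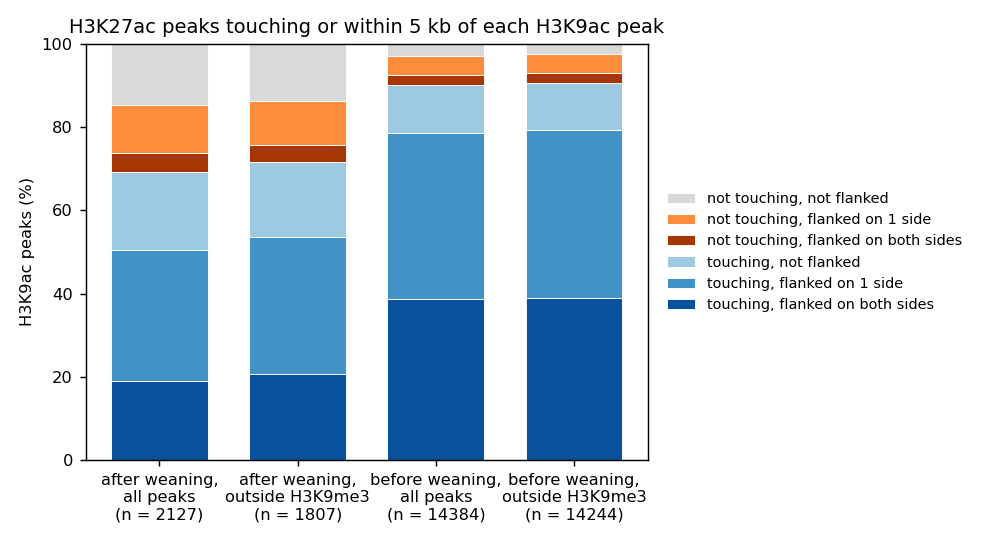
Percentage of H3K9ac peaks (y axis) in 6 classes, by whether they touch an H3K27ac peak and on how many sides H3K27ac peaks flank them within 5 kb, for all peaks and outside H3K9me3 at both time points. Touching peaks (blue) make up 69.3% after weaning and 90.02% before, and peaks with no H3K27ac within 5 kb (grey) 14.6% and 2.91%.

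H3K9ac peaks that touched no H3K27ac peak were still closer to H3K27ac than windows were. Of these 653 peaks, 343 were flanked on at least 1 side, 52.5% (48.7 to 56.3%), against 6.26% of windows that touched none, and 96 on both sides, 14.7% (12.2 to 17.6%), against 0.719%. The share on both sides was 8.12% at a limit of 2 kb and 23.1% at 10 kb. Against the 2127 widest H3K27ac peaks it was 0.753%, over the larger set of 1726 H3K9ac peaks that touched none of those. Outside H3K9me3 the values were 266 of 514, 51.8%, and 76 of 514, 14.8%. The nearest H3K27ac peak was within 500 bp for 119 of the 653 peaks (18.2%) and within 1 kb for 183 (28.0%), and it was more than 50 kb away for 81 (12.4%). At the 5 kb limit, the last peak counted as flanked had its nearest H3K27ac peak at 4952 bp and the first left out at 5129 bp. The 310 peaks with none within the limit had their nearest H3K27ac peak at a median of 20226.5 bp (16943 to 23813 bp). For the 96 peaks that lay between H3K27ac peaks, the median distance between the facing ends of the neighbours was 2462 bp (1952 to 3229 bp), and the H3K9ac peak itself had a median width of 226.5 bp.

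Flanking peaks were more numerous and closer around touching H3K9ac peaks. An H3K27ac peak was counted once for each H3K9ac peak that it flanked. So counted, 2794 flanked the 1474 touching H3K9ac peaks, a mean of 1.90 each, and 752 flanked the 653 others, a mean of 1.15. At least 5 H3K27ac peaks flanked 168 touching H3K9ac peaks (11.4%) and 30 of the others (4.59%). By distance from the H3K9ac peak, 68.7 flanking peaks for every 100 touching H3K9ac peaks lay in the first kb and 23.1 in the last of the 5 kb, and for the others these numbers were 37.5 and 17.2. Background windows that touched H3K27ac were likewise flanked more often than those that touched none, 70.3% against 6.26% on at least 1 side. A contrast of this kind is therefore not particular to H3K9ac. Numbers and distances of flanking peaks were not computed for windows.

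The profile of H3K27ac around H3K9ac centres showed the same arrangement at finer steps. Around touching H3K9ac peaks, 92.9% of centres were covered by H3K27ac, 44.5% of positions at 250 bp, 24.1% at 500 bp, 14.7% at 1000 bp and 4.92% at 5000 bp. Around the others, coverage was 0 at the centre, rose to its highest value of 6.89% at 450 bp and was still 3.22% at 5000 bp, where the whole genome had 0.403%. The trough at the centre follows from how this group is defined, and the coverage beyond it does not.

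**Figure D3:**
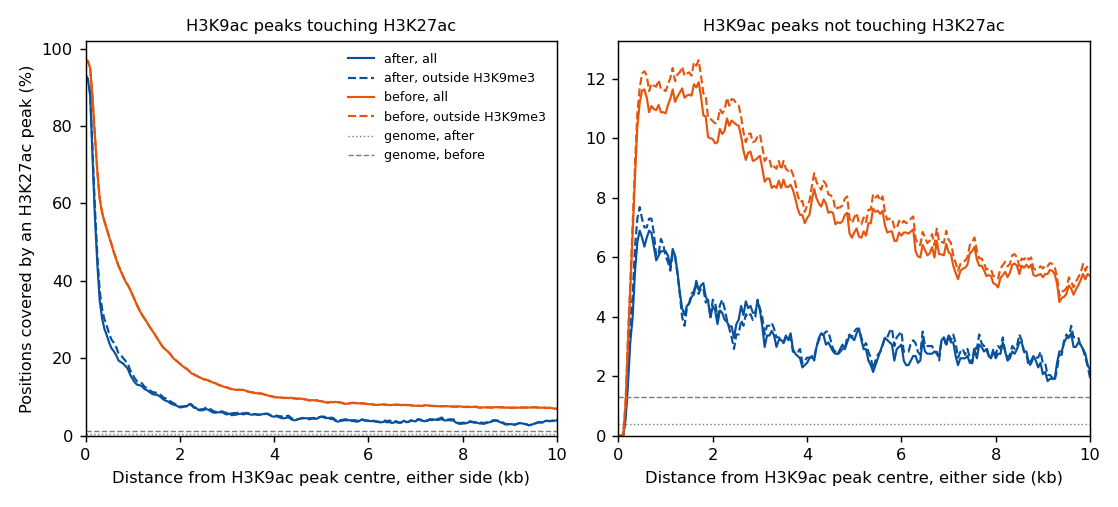
Percentage of positions covered by an H3K27ac peak (y axis, a different scale in each panel) against the distance in kb from the H3K9ac peak centre with both sides pooled (x axis), for H3K9ac peaks that touch H3K27ac (left) and that do not (right). Grey lines give the coverage of the whole genome by H3K27ac at each time point, 0.403% after and 1.31% before weaning, and every curve lies above its line at 10 kb.

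Wide H3K27ac peaks carried H3K9ac most often. The median width was 454 bp (440 to 471 bp) for H3K27ac peaks that touched H3K9ac and 285 bp (283 to 287 bp) for those that did not. In 5 groups of about equal size from narrow to wide, H3K9ac was touched by 1.25%, 2.01%, 3.23%, 5.41% and 12.3% of the peaks. Background windows of the median width of each group gave 0.0381%, 0.0408%, 0.045%, 0.0514% and 0.066%, a smaller rise than that of the peaks. Outside H3K9me3 the shares were 0.999% in the narrowest and 11.6% in the widest group. Width is set by enrichment, depth and the caller together, and the lists carry no height with which to separate these.

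**Figure D4:**
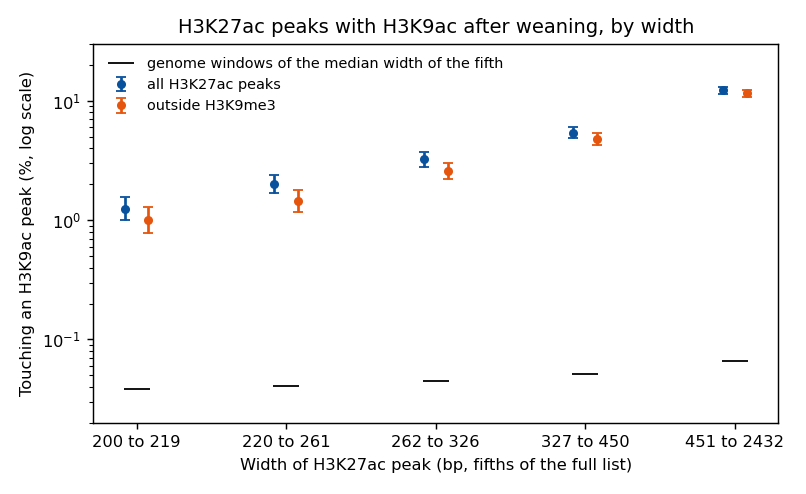
Percentage of H3K27ac peaks after weaning that touch an H3K9ac peak (y axis, log scale) in 5 groups of H3K27ac peak width in bp (x axis), with 95% Wilson intervals as bars, for all peaks (blue) and outside H3K9me3 (orange). Both series rise from about 1% to about 12%, while windows of the same widths (black) stay below 0.1%.

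The share with H3K9ac differed less by the crowding of H3K27ac peaks than by their width. An H3K27ac peak with no other within 5 kb touched H3K9ac in 4.25% of cases (3.85 to 4.68%), and a peak with 4 or more others in 5.90% (5.25 to 6.62%). Among peaks no wider than the median these shares were 2.096% and 1.96%, and among wider peaks 7.04% and 8.89%. A further 2653 H3K27ac peaks (8.71%) did not touch H3K9ac but had an H3K9ac peak within 5 kb, against 0.702% of windows.

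H3K9ac peaks that touched H3K27ac were wider and more often present before weaning. Their median width was 253 bp (249 to 256 bp) against 225 bp (222 to 230 bp) for the others, and 11.2% against 22.5% had the lowest width in the lists, 200 bp. Outside H3K9me3, 58.9% (56.2 to 61.6%) of touching peaks and 14.01% (11.3 to 17.3%) of the others touched an H3K9ac peak before weaning, where 0.297% of the windows did. An H3K27ac peak before weaning was touched by 93.7% (92.3 to 94.9%) and 53.3% (49.0 to 57.6%), against 1.93% of windows. H3K9ac peaks that touched no H3K27ac after weaning had thus often lain on H3K27ac before it.

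**Figure D5:**
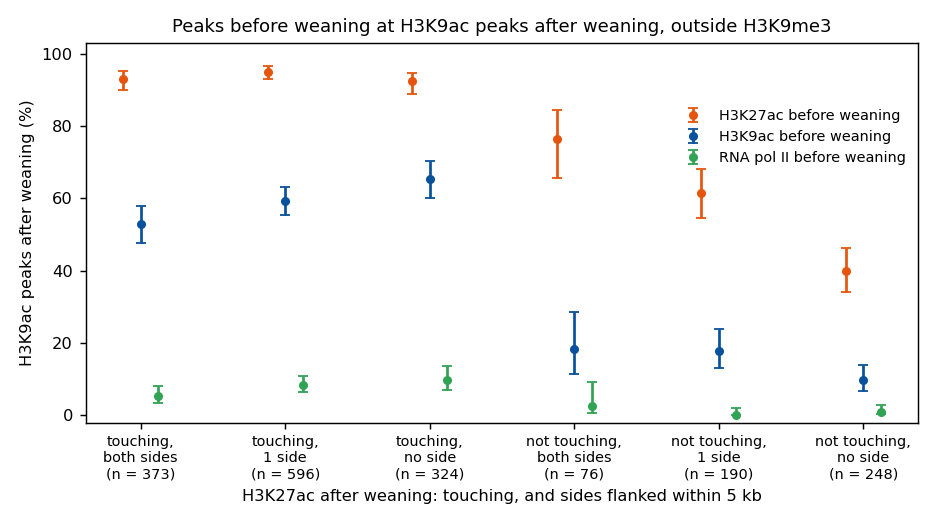
Percentage of H3K9ac peaks after weaning, outside H3K9me3, that touch a peak of H3K27ac, H3K9ac or RNA pol II before weaning (y axis, bars are 95% Wilson intervals), in the 6 classes by H3K27ac after weaning (x axis). H3K27ac before weaning lies above 92% in the 3 touching classes and falls to 39.9% in peaks with no H3K27ac within 5 kb.

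The same link was seen from the earlier peaks. An H3K9ac peak after weaning that touched an H3K9ac peak before weaning, called kept here, touched H3K27ac after weaning in 847 of 942 cases, 89.9% (87.8 to 91.7%). A peak that touched none before, called gained, did so in 627 of 1185 cases, 52.9% (50.1 to 55.7%). Kept peaks had no H3K27ac touching or within 5 kb in 4.14% of cases, and gained peaks in 22.9%. Where both marks had been present before weaning, 789 of 861 H3K9ac peaks touched H3K27ac after it (91.6%). With H3K27ac alone before, the count was 461 of 667 (69.1%), and with neither it was 166 of 518 (32.0%). With H3K9ac alone before, 58 of 81 peaks touched H3K27ac (71.6%), but only 9 of those 81 lay outside H3K9me3. Outside H3K9me3 the share with neither mark before was 75 of 312, 24.0%.

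RNA pol II, the enzyme that transcribes protein-coding genes, was found at H3K9ac in another pattern. The labels put the shorter RNA pol II list after weaning, with 738 peaks against 2056. The paper's text assigns the shorter list to the other time point. The labels were followed here, and which is right cannot be told from the lists. After weaning an RNA pol II peak was touched by 11.7% of touching H3K9ac peaks and 17.2% of the others, where 0.0168% of windows did, but outside H3K9me3 only 5 of 1293 (0.387%, 0.165 to 0.902%) and 1 of 514 (0.195%, 0.0344 to 1.09%) remained. Of the 284 H3K9ac peaks with RNA pol II after weaning, 6 thus lay outside H3K9me3. RNA pol II before weaning had another distribution. Over all H3K9ac peaks it was touched by 262 of 1474 touching peaks (17.8%, 15.9 to 19.8%) and by 88 of 653 others (13.5%, 11.1 to 16.3%). Outside H3K9me3 it was touched by 102 of 1293 touching peaks (7.89%, 6.54 to 9.49%) and by 4 of 514 others (0.778%, 0.303 to 1.98%), against 0.043% of windows. Among H3K27ac peaks outside H3K9me3, RNA pol II before weaning was touched by 9.38% (7.91 to 11.1%) of those with H3K9ac and by 3.65% (3.44 to 3.87%) of those without. Over all H3K27ac peaks these shares were 19.1% (17.2 to 21.2%) and 3.79% (3.58 to 4.02%).

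The widest H3K9ac peaks of the classes outside H3K9me3 show these arrangements. The widest that touched H3K27ac, 819 bp on chromosome 24 (38054602 to 38055420), reached over 2 H3K27ac peaks of 301 and 650.0 bp, with centres 255 and 285.5 bp to its sides, and had 3 flanking peaks on each side. On chromosome 15 (30053093 to 30053741) a 649 bp H3K9ac peak lay within an H3K27ac peak of 1264 bp, with centres 103.5 bp apart. The H3K9ac peaks on chromosome 5 (104631123 to 104631761, 639 bp) and on chromosome 15 (75520738 to 75521352, 615 bp) also touched 2 H3K27ac peaks. These 5 were chosen for their width, and a wider peak has more room to reach 2 others. The last of the 5, 593 bp on chromosome 2 (54102842 to 54103434), began on the same base as its H3K27ac peak of 445 bp and touched an RNA pol II peak after weaning.

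Peaks between H3K27ac neighbours were narrower. The widest, 382 bp on chromosome 19 (55173060 to 55173441), had H3K27ac 497 bp to the left and 3557 bp to the right. The peak on chromosome 28 (28227276 to 28227587, 312 bp) had the shortest left gap of these 5, with 4 H3K27ac peaks on each side and gaps of 72 bp to the left and 204 bp to the right. The others were on chromosome 22 (13708211 to 13708552, 342 bp), chromosome 15 (52047962 to 52048286, 325 bp) and chromosome 15 (56939708 to 56940016, 309 bp). All 5 touched an H3K27ac peak before weaning.

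The widest H3K9ac peak with no H3K27ac within 5 kb, 636 bp on chromosome 4 (52210314 to 52210949), was 24062 bp from the nearest one and touched H3K27ac before weaning. On chromosome 22 (43782268 to 43782733) a 466 bp peak also touched H3K27ac before weaning. The other 3, on chromosome 14 (20721929 to 20722387), chromosome 19 (18775602 to 18776018) and chromosome 10 (62825084 to 62825486), touched none. None of the 5 touched an H3K9ac peak before weaning.

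The densest surroundings held 11 flanking H3K27ac peaks within 5 kb. They belonged to an H3K9ac peak of 499 bp on chromosome 7 (63115447 to 63115945), with 4 on the left and 7 on the right, and to 1 of 244 bp on chromosome 11 (71347655 to 71347898), with 7 and 4. The next had 10 each, on chromosome 7 (48070850 to 48071191 and 21079193 to 21079392) and on chromosome 8 (112600200 to 112600537). All 5 touched 1 H3K27ac peak, with centres 9 to 162.5 bp apart, touched H3K27ac before weaning and lay outside H3K9me3.

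Before weaning the lists were longer, with 14384 H3K9ac and 74249 H3K27ac peaks, and both the share of H3K9ac peaks on H3K27ac and the background share were higher. H3K9ac touched H3K27ac in 90.02% of peaks before weaning, against 1.97% of windows of the matching width, and in 69.3% after weaning, against 0.665%. The median offset was 133 bp (129.5 to 136.5 bp) before and 73.0 bp after weaning, but the H3K27ac peaks of the pairs were also wider, with medians of 812 and 457 bp. Flanks on at least 1 side were found for 85.7% of H3K9ac peaks before weaning, against 12.9% of windows, and on both sides for 41.1%, against 2.69%. Touching and flanking together reached 97.1%, against 13.2%. For peaks on H3K27ac the flanked share was 87.4%, against 83.6% of windows on H3K27ac, near the background as it was after weaning. Among H3K9ac peaks that touched no H3K27ac, 70.9% (68.5 to 73.2%) were flanked on at least 1 side, against 11.5% of windows, and 24.7% (22.6 to 27.04%) on both, against 1.94%. The 355 peaks between H3K27ac neighbours made up 2.47% of the list, against 1.91% of windows, and the 662 with H3K27ac on 1 side 4.60%, against 9.36%. With 1 library per group these differences have no replicate check, and unequal list length and weaning cannot be told apart in them.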

How the data were processed

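The authors aligned reads with BWA to the cattle assembly, kept unique alignments and called peaks with MACS2 against the input, and the labels' processing notes also name Trim Galore 0.4.1. The labels give UMD3.1 as the build and the methods its patch release. The deposited values are chromosome, start and end of each peak, with no height, score or p-value, so width was the only measure of a peak. Positions were read as 1-based with both ends included. Groups came from the labels, 1 library each.

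Touching peaks (at least 1 bp shared), centre offsets and flanks within 5 kb were computed in Python 3.11.15 with numpy 2.4.6, pandas 2.3.3 and scipy 1.17.1, and figures were drawn with matplotlib 3.10.9. The interval functions were checked on simulated data. H3K9me3 regions were the peaks of either H3K9me3 library. Chromosome extents were the highest peak end over the 8 lists. The regions named were the 5 widest H3K9ac peaks of 3 classes outside H3K9me3 and the 5 with the most flanking H3K27ac peaks. The members and lists were chosen with earlier results of these data known. Genes, promoters and sequences were not analysed here. The gene table at hand is on another assembly.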

Additional observations from a re-analysis of the deposited data

Results flagged for a closer look

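The share of H3K9ac peaks with an RNA pol II peak of the same time point was compared between those that touched H3K27ac and those that did not, over the full lists. The difference, touching minus not touching, was -5.48 percentage points after weaning and 0.81 percentage points before weaning. These values stand out because their signs are opposite at the 2 time points. The labels and the paper's text differ on which RNA pol II list belongs to which time point, and the labels were followed. With 1 library per group the difference between the time points was not tested. Outside H3K9me3 the counts after weaning were 5 of 1293 (0.387%, 95% Wilson interval 0.165 to 0.902%) and 1 of 514 (0.195%, 0.0344 to 1.09%), so no direction can be read at this number of peaks. Before weaning, in the H3K9ac peaks of that time point, they were 891 of 12901 (6.91%, 6.48 to 7.36%) and 7 of 1343 (0.521%, 0.253 to 1.07%).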

How the results depend on the processing

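With 1 library per group, depth and enrichment cannot be told apart from weaning or mark, and no library could be left out. No paired analysis was possible because each group holds 1 library. Of 51 comparisons of a result with an alternative over 10 settings, 28 stayed within the counting interval of the reported value, among them every result with peaks wider than 200 bp, on chromosomes 1 to 29 and X (which hold every peak of both lists), and without the peaks at 50 to 52 Mb of chromosome 17. A reciprocal overlap of 50% gave 35.0% of H3K9ac and 2.45% of H3K27ac peaks touching, with a median offset of 35.0 bp. Merging peaks within 1 kb gave 6.65% of H3K27ac peaks touching, an offset of 202.5 bp, 43.3% of H3K9ac peaks flanked on at least 1 side, 8.65% on both, and 10.3% of the 590 non-touching between neighbours. Keeping only as many of the widest H3K27ac peaks as the H3K9ac list holds gave 18.85% and 17.8% touching, an offset of 174 bp, and flanking shares of 14.95%, 1.27% and 0.753% (the last over 1726 non-touching peaks). A flank limit of 2 kb gave 56.2%, 14.25% and 8.12%, and 1 of 10 kb gave 74.6%, 31.55% and 23.1%. Without H3K9me3 of either time point, 71.6% and 4.27% touched, and 4.295% of H3K27ac peaks without H3K9me3 after weaning alone. Background windows were computed for the settings of the report alone. The alternative windows around gene starts were not run, since genes were not analysed here.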

Other observations

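H3K27ac before weaning was near a smaller share of the H3K9ac peaks that had no H3K27ac after weaning than of the list as a whole. Outside H3K9me3, an H3K27ac peak before weaning touched or lay within 5 kb of 141 of the 248 H3K9ac peaks with none after weaning (56.9%, 95% Wilson interval 50.6 to 62.9%), of 72 of the 76 between H3K27ac neighbours after weaning (94.7%, 87.2 to 97.9%), and of all 373 that touched H3K27ac and were flanked on both sides. Over all H3K9ac peaks outside H3K9me3 the count was 1659 of 1807 (91.8%), and of the windows laid along the genome for the lists before weaning 13.2% touched H3K27ac or were flanked by it.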
